A study of Mus musculus with 28 samples.

Results

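Fgf5, Otx2, Pou3f1, Lef1, Sall2, Cdh2, Zic2 and Zic5 are genes that mouse pluripotent cells raise as they leave the naive state for the primed state, and their chromatin was compared here between wild-type (WT) and Spen knockout (Spen KO) mouse embryonic stem cells (mESCs). The members were taken by name. The list held 9 names, of which Oct6 is another name of Pou3f1, so that it gave 8 of the 22350 protein-coding genes of the GENCODE vM1 annotation on chromosomes 1 to 19 and X. For each gene, peaks were collected over the gene body plus 50 kb on each side.

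Naive pluripotency is the state of the preimplantation epiblast and of mESCs, and primed pluripotency is that of the postimplantation epiblast. Cells pass from the first to the second through an intermediate, formative state, in which Fgf5, Otx2 and Pou3f1 are among the earliest genes to rise. H3K4me3 marks promoters, H3K27Ac marks active promoters and enhancers, H3K9me3 marks repressed chromatin, and Oct4 (Pou5f1) is a transcription factor that binds enhancers in both states.

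The 28 samples were 16 chromatin immunoprecipitation (ChIP) libraries, 2 for each of 4 antibodies in each genotype, and 12 input libraries. WT cells were HATX, a haploid mESC line that carries a doxycycline-inducible Xist transgene, and the Spen KO cells were clone 2 of that line, described by the authors as carrying a deletion of Spen, an RNA-binding corepressor that acts with Xist, so that the knockout is 1 clone. Both were grown in serum with LIF, and the labels of the ChIP libraries name no doxycycline. The authors describe the libraries of a genotype as technical replicates, so differences between them measure technical spread. H3K4me3 and H3K27Ac peaks came as 1 list per genotype that kept the peaks reproduced in both libraries, H3K9me3 domains as 1 list per genotype, and Oct4 peaks as 1 list per library. Widths, peak counts and H3K9me3 values therefore have no replicate error and no test, whereas H3K4me3 and H3K27Ac peaks carry a score for each library.

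The lists differed in size. H3K4me3 had 34823 WT peaks and 31091 in the knockout, H3K27Ac had 13922 and 11932, and H3K9me3 had 53745 and 70268 domains. Oct4 had 1806 and 4111 peaks in the WT libraries and 2617 and 3028 in the Spen KO libraries. WT replicate 1 stood apart, with 73.8% of its Oct4 peaks within 1000 bp of a transcription start site (TSS) against 21.0 to 26.9% in the other libraries, so Oct4 counts are given with and without it. Read depth is unknown from these lists. They did not show the deletion: within Spen, H3K4me3 was called over 8968 bp in WT and over 24022 bp in the list labelled Spen KO, so those stretches were present in the cells so labelled, and Spen KO names libraries by their label throughout. The stem cell identity of both genotypes was checked on Pou5f1, Sox2 and Nanog, whose promoters all carried H3K27Ac above the 97th percentile of their list in both genotypes (lowest 97.8). None of 11 measured markers of neural progenitors, primitive endoderm, mesoderm and trophoblast had promoter H3K27Ac in either list. Promoter H3K4me3 was called at 10 of the 11 in both lists.

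Sequences are given for the 4 Oct4 sites that ranked first by the number of libraries and then by fold enrichment, as 200 bases around the mean summit, because these sites carry the binding described for Otx2, Lef1 and Zic5. They are mm9 plus-strand sequence at chr3:130805265-130805464, chr14:49320712-49320911, chr14:122815574-122815773 and chr14:49274689-49274888, and all 4 lie between genes. The last sequence is the stretch of the Pou3f1 promoter, chr4:124334748-124334895, at which the H3K4me3 peak was interrupted in Spen KO, shown up to the base before the gene starts. In the Oct4 sites capitals mark the Sox motif ACAATG, and in the Pou3f1 promoter they mark CG dinucleotides.
Lef1 8025 bp upstream: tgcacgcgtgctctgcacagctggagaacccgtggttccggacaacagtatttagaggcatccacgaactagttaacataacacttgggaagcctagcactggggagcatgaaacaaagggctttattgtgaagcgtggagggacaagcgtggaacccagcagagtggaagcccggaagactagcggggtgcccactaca
Otx2 33492 bp upstream: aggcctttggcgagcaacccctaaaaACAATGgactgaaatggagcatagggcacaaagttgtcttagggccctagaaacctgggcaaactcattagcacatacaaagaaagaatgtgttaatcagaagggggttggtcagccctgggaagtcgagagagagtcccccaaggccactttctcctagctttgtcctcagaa
Zic5 49226 bp downstream: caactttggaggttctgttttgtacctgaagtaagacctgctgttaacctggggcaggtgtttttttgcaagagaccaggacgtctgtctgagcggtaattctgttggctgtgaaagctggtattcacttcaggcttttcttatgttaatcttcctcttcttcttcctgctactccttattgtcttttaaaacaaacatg
Otx2 12531 bp downstream: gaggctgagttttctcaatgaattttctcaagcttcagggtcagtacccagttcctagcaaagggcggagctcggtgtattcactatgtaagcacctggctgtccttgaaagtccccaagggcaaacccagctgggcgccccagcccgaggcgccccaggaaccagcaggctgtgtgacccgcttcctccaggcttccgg
Pou3f1 gap: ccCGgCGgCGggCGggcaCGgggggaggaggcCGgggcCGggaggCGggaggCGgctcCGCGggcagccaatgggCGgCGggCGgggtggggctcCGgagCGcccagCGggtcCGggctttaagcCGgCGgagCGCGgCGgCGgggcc

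The octamer bound by Oct4, ATGCAAAT, was in none of the 4 Oct4 sites on either strand, nor was the form with 1 free base, ATGCNAAT, which includes it. Over all 7667 Oct4 sites of the 4 libraries, 3.85% of windows of that length held the octamer and 7.19% the form with a free base, and over the 1064 sites found in 3 or 4 libraries, as these 4 were, 7.52% and 14.5% did. The Sox motif was in 1 of the 4 sites, 33492 bp upstream of Otx2, in 11.6% of all sites and in 20.7% of those found in 3 or 4 libraries. Without the sites of WT replicate 1 alone, the octamer was in 4.40%, its form with a free base in 8.24% and the Sox motif in 13.4% of 6381 sites. The Pou3f1 stretch had 24 CG dinucleotides in 148 bases and a G+C content of 85.8%.

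The first comparison asked whether the promoters of primed genes had wider or narrower H3K4me3 in Spen KO. All 8 promoters had H3K4me3 in both genotypes, and at the main setting all 8 were narrower in Spen KO, but 3 of them turned wider at one setting each: Otx2 with the promoter taken as 2500 bp, Zic2 with the 5′ end of the gene alone and Sall2 with the stronger 50% of peaks. Of 14251 genes with promoter H3K4me3 in both lists, 88.7% were narrower by any amount. Only Pou3f1 passed a 1.5-fold difference. Promoter width is the summed width of the peaks within 1000 bp of any annotated TSS of the gene.

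Fgf5, a secreted growth factor of the primed epiblast (ENSMUSG00000029337.1, chr5:98683203-98706049), was 2007 bp wide in WT against 1447 bp in Spen KO, a log2 ratio of -0.47. Otx2, a homeobox factor that drives exit from the naive state (ENSMUSG00000021848.9, chr14:49277354-49287319), went from 4013 to 3495 bp. Pou3f1, a POU factor of the epiblast and of neural cells (ENSMUSG00000078236.3, chr4:124334896-124337899), went from 4557 to 2759 bp, 1.65-fold narrower. Pou3f1 and Fgf5 thus held the largest and the second largest decrease of the 8 at the main setting. Otx2, with a log2 ratio of -0.20, ranked behind Lef1 (-0.31) and Sall2 (-0.30). The order depended on the setting: with the 5′ end of the gene alone, the largest decreases were at Sall2 (-0.96) and Otx2 (-0.74).

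Lef1, a DNA-binding effector of Wnt signalling (ENSMUSG00000027985.8, chr3:130813389-130927274), went from 4362 to 3514 bp. Sall2, a zinc finger factor (ENSMUSG00000049532.6, chr14:52930847-52948437), went from 5995 to 4877 bp. Cdh2, the adhesion molecule N-cadherin (ENSMUSG00000024304.8, chr18:16747386-16967755), went from 3349 to 3130 bp. Cdh2 and the neighbouring Zic genes changed least. Zic2 (ENSMUSG00000061524.7, chr14:122874604-122879074) went from 6436 to 6109 bp and Zic5 (ENSMUSG00000041703.7, chr14:122856017-122864899) from 4760 to 4526 bp. Both encode zinc finger factors of the epiblast and neural tube.

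**Figure D1:**
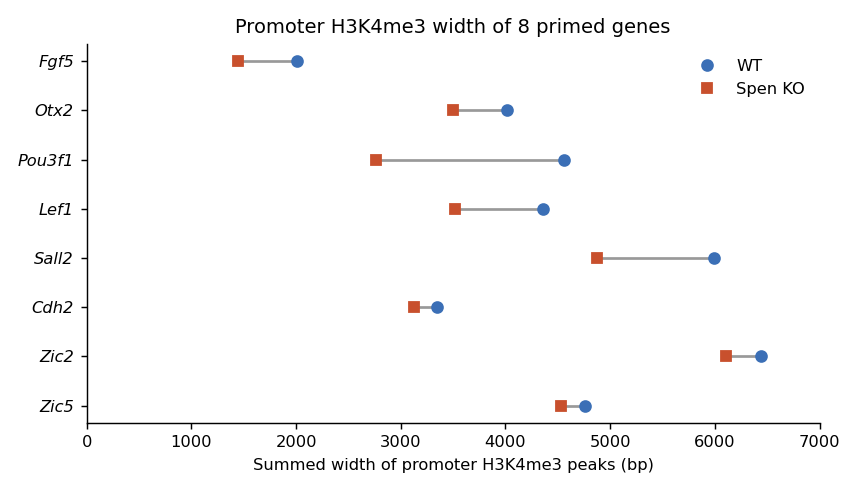
Summed width in bp (x axis, from 0) of the promoter H3K4me3 peaks of each gene (y axis) in the WT list (circles) and the Spen KO list (squares), 1 value per genotype. Every square lies left of its circle, and the gap is widest for Pou3f1, from 4557 to 2759 bp.

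Narrower peaks were general. The median log2 width ratio of the 8 genes was -0.25, and that of all genes with promoter H3K4me3 in both lists was -0.30. A decrease of at least 1.5-fold was found in 1 of the 8 genes and in 25.2% of 14834 genes, and an increase of that size in 0 of 8 and in 1.69%. The strongest promoter peak, taken in each list, ranked lower in Spen KO for 6 of the 8 genes and for 59.0% of 14251 genes. Zic5 went from the 98.8th to the 75.3rd percentile and Pou3f1 from the 95.3rd to the 83.8th, whereas Lef1 rose from the 87.2nd to the 89.7th. The strongest Sall2 peak, further inside the gene, went from the 97.0th to the 69.0th, but its peak next to the 5′ end rose from the 43.0th to the 58.6th. The strongest Otx2 peak differed between the lists, at the 57.2nd percentile in WT and the 65.2nd in Spen KO. Next to the 5′ end Otx2 fell from the 57.2nd to the 44.3rd, and further inside the gene it rose from the 55.3rd to the 65.2nd. The 10 lineage markers with promoter H3K4me3 in both lists were all narrower in Spen KO too, 4 of them by at least 1.5-fold, with a median log2 ratio of -0.44. Among them, Pax6 went from 11698 to 2129 bp and Gata6 from 5494 to 1974 bp. Their part in the members' values was not tested.

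The score of the strongest promoter peak gave a value for each library. At Zic5 the scores were 71.6 and 72.7 in WT against 39.1 and 29.0 in Spen KO. At Sall2 they were 63.3 and 67.8 against 26.8 and 34.5, at Pou3f1 64.5 and 58.3 against 47.5 and 30.9, and at Cdh2 55.6 and 56.7 against 36.4 and 48.7. In these 4 genes both Spen KO libraries lay below both WT libraries at the strongest peak, as they did in 36.8% of 14251 genes. The opposite held for 0 of the 8 and for 5.44%. The weaker Sall2 peak, next to the 5′ end, did not share this: its scores were 25.7 and 15.4 in WT against 26.2 and 25.5. At Fgf5, Otx2, Lef1 and Zic2 the libraries overlapped. The scores of Otx2 were 22.6 and 33.0 in WT against 41.5 and 16.2, but these came from different peaks of the gene. Next to the 5′ end, where the WT peak lay, the Spen KO scores were 27.3 and 13.2. Over the whole lists the median scores of the libraries were 23.4 and 23.6 in WT against 24.9 and 18.6, so the Spen KO libraries differed from each other.

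At Pou3f1, the single WT peak reached from 1722 bp upstream to 2834 bp downstream of the 5′ end. In Spen KO the promoter had 2 peaks, from 1418 to 149 bp upstream and from 9 to 1497 bp downstream, separated by 157 bp whose upstream bases are printed above. Another Spen KO peak of 891 bp, from 1583 to 2473 bp downstream, lay inside the span of the WT peak but over 1000 bp from the TSS, and so was not in the promoter width. The call on Pou3f1 depends on this outline. Its difference was 1.41-fold when peaks within 1000 bp of each other were joined and 1.25-fold when the promoter was taken as 2500 bp. With the 5′ end of the gene alone, Otx2 and Sall2 also passed 1.5-fold.

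**Figure D2:**
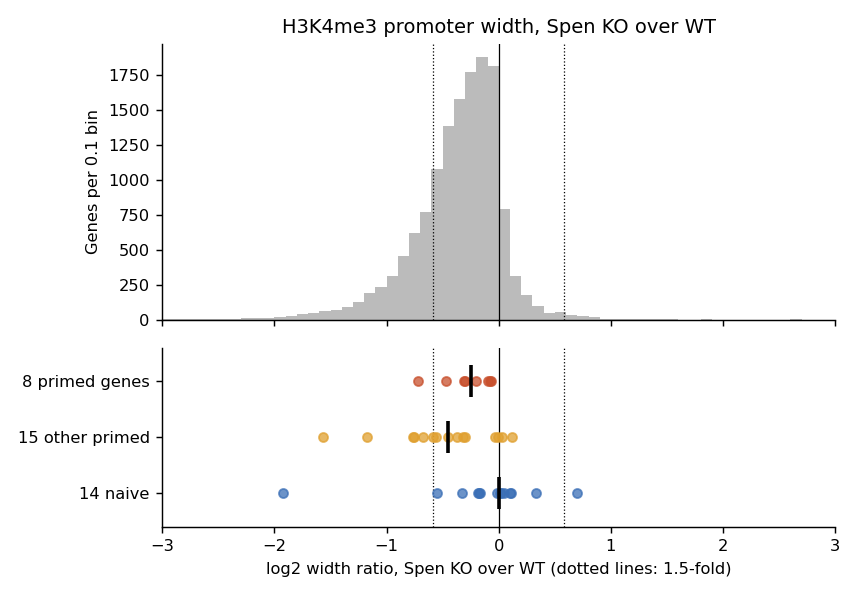
The upper panel counts genes (y axis) by the log2 ratio of H3K4me3 promoter width, Spen KO over WT (x axis, values beyond -3 or 3 counted in the end bins). The lower panel shows the same ratio for the 8 primed genes, 15 other primed genes and 14 naive genes with both values, 1 point per gene and a bar at the median, with dotted lines at 1.5-fold. The 8 genes lie between -0.72 and -0.07, inside the bulk of all genes.

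Of 15 other genes of the primed or formative state, 5 were at least 1.5-fold narrower in Spen KO and none was wider by that much, with a median log2 ratio of -0.46. The largest differences were at Cldn6, a tight junction protein (3589 to 1213 bp), Lin28b, an inhibitor of let-7 processing (4299 to 1903 bp), Sox11 (5545 to 3264 bp), Foxd3 (4404 to 2612 bp) and Dnmt3b, a de novo DNA methyltransferase (4616 to 2897 bp). Of 15 genes of the naive state, 2 were narrower and 1 was wider. Their median was 0.00 over the 14 with promoter H3K4me3 in both lists, so without Gbx2. Gbx2 had 7336 bp in WT and no promoter peak in Spen KO, and Nr5a2 went from 8379 to 2213 bp. Tcl1 went from 1331 to 2165 bp, Fgf4 from 7258 to 4963 bp and Tfcp2l1, annotated as Tcfcp2l1, from 2853 to 3597 bp.

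Promoter H3K27Ac was found at 2 of the 8 genes in WT, Zic2 and Zic5, and at 3 in Spen KO, where Lef1 was added. Most promoters had none: of all 22350 genes, 4467 had it in WT, 4708 in Spen KO and 5418 in either list. Its presence or absence at so few members is therefore not particular to them. Among 5418 genes with promoter H3K27Ac in either list, 17.6% had it in Spen KO only and 13.1% in WT only, and among the 3 members with it these counts were 1 and 0. The Lef1 peak was 603 bp wide, lay 1067 to 1669 bp downstream of the 5′ end and ranked at the 14.2nd percentile of the Spen KO list. With the 5′ end of Lef1 alone it was no longer a promoter peak. At Zic2 the acetylated width was 1312 bp in WT against 3251 bp in Spen KO, where a second peak covered 71 to 1697 bp upstream. At Zic5 it was 2358 bp and 2307 bp. The library scores of the strongest peak were 17.9 and 12.7 in WT against 30.3 and 17.5 at Zic2, and 31.1 and 25.8 against 35.6 and 18.97 at Zic5, and overlapped at both genes. The promoters of Fgf5, Otx2, Pou3f1, Sall2 and Cdh2 had no H3K27Ac peak in either list.

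In the comparison lists, 8 of the other primed genes had promoter H3K27Ac in either list, 3 of them (Dnmt3b, Sox11 and Grhl2) in WT only and none in Spen KO only. Of the 11 naive genes with it, 2 (Dppa3 and Tfcp2l1) had it in WT only and none in Spen KO only.

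Distal H3K27Ac differed most at Otx2. Its window had no distal peak in WT and 4 in Spen KO, where distal means over 1000 bp from every protein-coding TSS. The strongest of the 4 was 2170 bp wide, from 11700 to 13869 bp downstream of the 5′ end and so beyond the end of the gene, and ranked at the 83.0th percentile of its list. Its scores in the libraries were 29.1 and 32.6. Next to it lay peaks of 688 and 746 bp, and the fourth lay 32445 to 33330 bp upstream with scores of 14.3 and 22.6. The count of 4 fell to 2 when peaks within 1000 bp of each other were joined and to 1 with the stronger 50% of peaks, against 0 in WT each time. H3K4me3 was called at the downstream site in both genotypes.

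**Figure D3:**
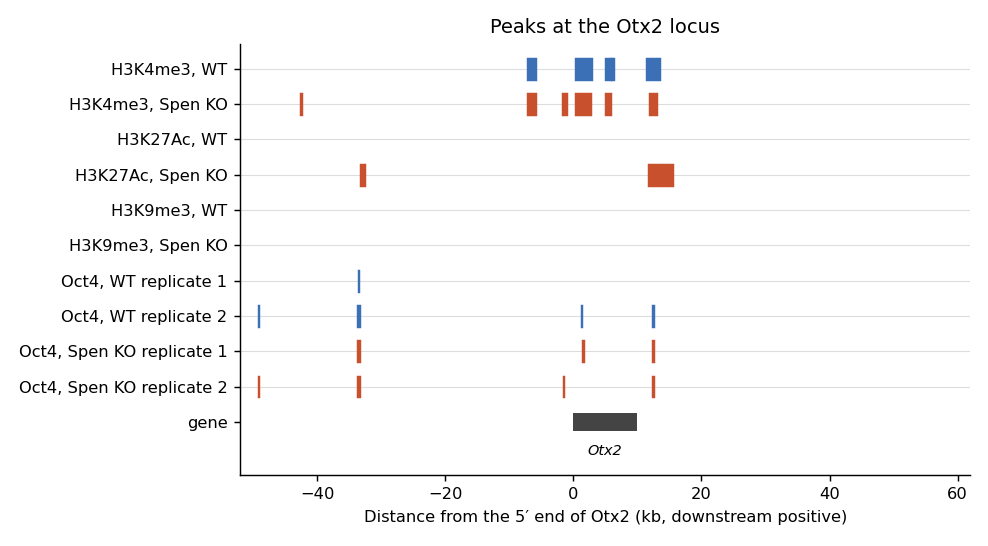
Peaks of each list (rows, WT in blue and Spen KO in orange) by distance in kb from the 5′ end of Otx2 (x axis), with the gene as a dark bar. H3K27Ac is seen only in the Spen KO row, 11700 to 15606 bp downstream and 32445 to 33330 bp upstream, and Oct4 peaks of WT and Spen KO libraries lie in the downstream stretch and at or next to the upstream one.

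The other windows changed by 1 peak or none. Distal H3K27Ac went from 1 to 0 peaks at Pou3f1, from 3 to 2 at Lef1, from 2 to 3 at Zic2 and from 4 to 5 at Zic5, stayed at 2 for Sall2 and was 0 in both lists for Fgf5 and Cdh2. The Pou3f1 peak lay in an intron of Fhl3. Of the 6 genes with a distal peak, 2 (Pou3f1 and Lef1) had at least 1.5-fold fewer in Spen KO and 2 (Otx2 and Zic2) at least 1.5-fold more, against 50.4% and 23.1% of 8311 genes. Zic2 was at 2 peaks in each genotype with joined peaks and 1 in each with the stronger 50%, and Pou3f1 had none in either with the stronger 50%. The windows of Zic2 and Zic5 overlap, and every distal peak counted for Zic2 was also counted for Zic5.

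Over the 7 merged windows H3K27Ac had 13 WT peaks and 18 Spen KO peaks. Peaks that overlapped none of the other genotype were 3 of the 13 in WT, against 39.8% of the whole WT list, and 8 of the 18 in Spen KO, against 29.4% of the whole list. Otx2 held 4 of these 8. With peaks within 1000 bp joined, the distal peaks numbered 8 in each genotype. For H3K4me3, 14 of 43 peaks in the windows were in WT only and 2 of 32 in Spen KO only, against 23.2% and 9.49% of the whole lists.

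**Figure D4:**
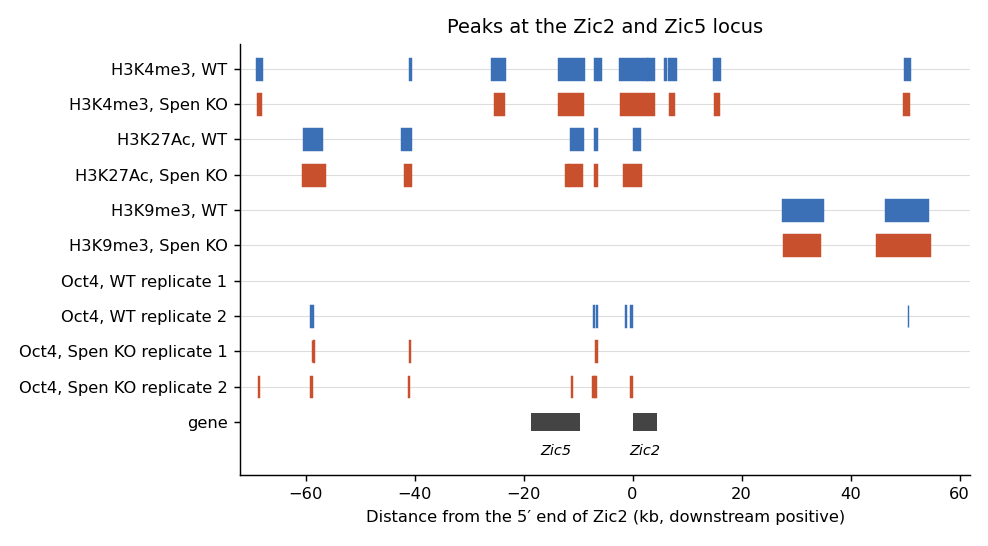
Peaks of each list (rows, WT in blue and Spen KO in orange) by distance in kb from the 5′ end of Zic2 (x axis), with both genes as dark bars. H3K27Ac and H3K9me3 lie at much the same places in both genotypes, and WT replicate 1 has no Oct4 peak.

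H3K9me3 lay away from the promoters. No promoter of the 8 genes touched a domain in either genotype, and the Otx2 window had none at all. Most promoters touched none: of all 22350 genes, 2431 had a promoter domain in WT and 2376 in Spen KO. The covered length was 14.6 kb in WT against 17.8 kb in Spen KO at Fgf5, 4.8 and 2.0 kb at Pou3f1, 9.0 and 4.6 kb at Lef1, 22.4 and 25.0 kb at Sall2, 12.2 and 9.8 kb at Cdh2, 15.4 and 16.7 kb at Zic2, and 7.6 and 6.8 kb at Zic5. Pou3f1 and Lef1 thus had at least 1.5-fold less in Spen KO, 2 of the 7 genes with any, and none had that much more. The shares over 18009 genes were 25.1% and 11.8%. Summed over the merged windows, H3K9me3 covered 78.4 kb in WT against 75.9 kb in Spen KO, a difference that changed sign with a flank of 20 kb. At Lef1 a domain in an intron was 6600 bp long in WT against 4600 bp, and a 2400 bp domain in an intron of the neighbouring gene Hadh was called in WT only.

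Oct4 peaks were called in each of the 4 libraries separately, so their counts have a spread. The windows of Fgf5 and Pou3f1 had no Oct4 peak in any library. The Lef1 window had 1 and 1 peaks in the WT libraries and 3 and 2 in the Spen KO libraries, so its genotypes did not overlap, in an exact two-sided permutation test at p = 0.333, the smallest that 2 libraries against 2 allow. Both Spen KO libraries exceeded both WT libraries in 1 of the 6 members with a peak and in 5.49% of 9478 genes, and the opposite held for 0 of 6 and 4.16%. Without WT replicate 1, both Spen KO libraries exceeded WT replicate 2 in 1 of the 6, Lef1, and in 9.96% of 7229 genes, and both lay below it in 1 of the 6, Cdh2, and in 34.0%.

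The Otx2 window had 1 and 4 peaks in WT and 3 and 4 in Spen KO. The Zic2 window had 0 and 5 against 2 and 5, and the Zic5 window 0 and 6 against 4 and 7. Sall2 had 1 peak in Spen KO replicate 2 alone and Cdh2 had 1 peak in WT replicate 2 alone. In these 5 genes the libraries of the genotypes overlapped, and the exact permutation p ranged from 0.667 to 1. Adjusted by Benjamini-Hochberg over the 6 genes tested, all were 1.

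**Figure D5:**
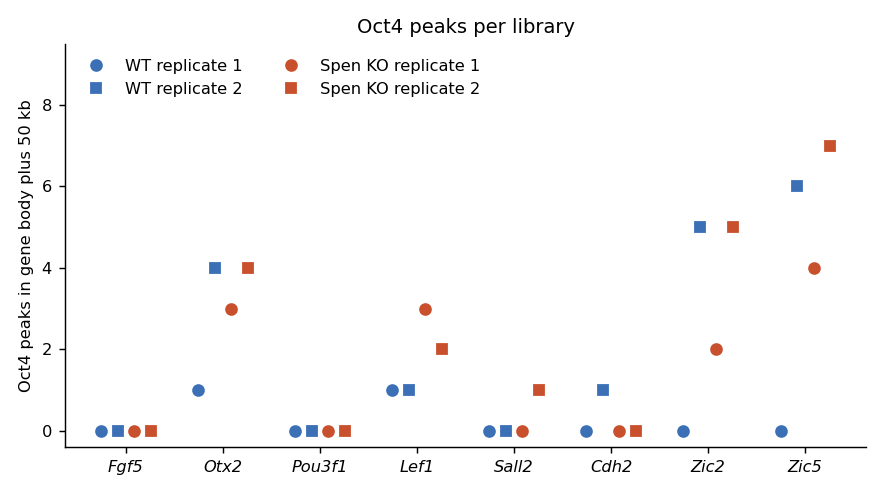
Oct4 peaks in the gene body plus 50 kb (y axis) for each gene (x axis), with 1 point per library, WT in blue and Spen KO in orange, replicate 1 as circles and replicate 2 as squares. Only at Lef1 do both Spen KO points, 3 and 2, lie above both WT points, 1 and 1.

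In all, the windows held 2 and 13 Oct4 peaks in WT, a mean of 7.5 ± 7.78 (SD, n = 2), and 10 and 14 in Spen KO, a mean of 12.0 ± 2.83 (SD, n = 2). The difference of 4.5 peaks rested on WT replicate 1, since without it the mean of Spen KO was 1 peak below WT replicate 2. It was 1 with a flank of 20 kb, 2 with the stronger 50% of peaks and 3 with each library cut to the length of the shortest.

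The peaks fell on 22 separate sites, of which 2 were found in all 4 libraries. The first, 8025 bp upstream of Lef1, had a fold enrichment over input of 8.85 and 12.4 in WT against 11.2 and 5.79 in Spen KO, and lay at an H3K27Ac peak in both genotypes. The second, 33492 bp upstream of Otx2, had 5.91 and 11.3 in WT against 6.50 and 11.8. In both sites the genotypes overlapped. The Oct4 peaks of both Spen KO libraries at the Otx2 site overlapped the upstream H3K27Ac peak that was called in Spen KO only. That peak ended 33330 bp upstream, and the WT Oct4 peaks began 33462 and 33347 bp upstream, close outside it. This is a matter of peak edges at a site called in all 4 libraries.

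A further 3 sites were missing from WT replicate 1 alone. The site 12531 bp downstream of Otx2 had 5.63 in WT replicate 2 and 5.51 and 7.62 in Spen KO, and lay in the strongest H3K27Ac peak found in Spen KO only. The site 49226 bp downstream of Zic5 had 5.70, 7.47 and 7.73, and the site 2988 bp upstream of Zic5 had 6.34, 5.61 and 5.51, and both sites, joined over libraries, touched H3K27Ac of both genotypes. Only 1 site, 25630 bp upstream of Lef1, was called in each Spen KO library while absent from WT, with 5.08 and 6.57. That site had no H3K27Ac in either genotype. No site showed the reverse, which required a peak of WT replicate 1. The 2 peaks of that library in the windows lay at the sites found in all 4 libraries. The share of such sites over all Oct4 sites is not given here, so these counts say nothing particular to the 8 genes.

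As to whether the Spen KO lists leaned to the primed state, H3K4me3 was narrower at all 8 genes at the main setting. The same held for 88.7% of all genes with promoter H3K4me3 in both lists. The median log2 ratio was -0.25 for the 8, -0.46 for the 15 other primed genes and -0.30 for all genes. For the 14 naive genes with both values it was 0.00, with 7 narrower and 7 wider. With joined peaks the other primed genes were at -0.30, the naive genes at -0.0970 and all genes at -0.31. Promoter H3K27Ac was in WT only at 3 other primed and 2 naive genes, and in Spen KO only at Lef1. Distal H3K27Ac of the 8 genes differed in direction, with more peaks in Spen KO at Otx2, Zic2 and Zic5 and fewer at Pou3f1 and Lef1. Apart from Otx2, each of these differences was 1 peak. The peak added at Zic2 and at Zic5 was the same one, in an intron of Zic5, at percentile 10.1 of the Spen KO list. With joined peaks the genotypes had equal counts at both Zic genes. The peak lost at Pou3f1 lay in an intron of Fhl3 and was absent with the stronger 50% of peaks. Fgf5 and Cdh2 had no H3K27Ac in either list. RNA was not analysed here, so none of these values is a level of expression.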

How the data were processed

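ChIP-seq peak lists of H3K4me3, H3K27Ac, H3K9me3 and Oct4 from WT and Spen KO mESCs were used as deposited. The authors mapped reads to mm9 with Bowtie2, kept unique pairs without duplicates (Picard) and ran MACS2 against input, and the submitters' processing notes also name DESeq2 and bedtools. For H3K4me3 and H3K27Ac the authors kept peaks of both libraries by IDR (largest value in the lists 0.05), and each deposited peak has a width and a score per library. The deposited H3K9me3 domains are multiples of 200 bp and carry a p-value and a score; the methods name MACS2 for histone marks, and how the windows were joined is not given in the sources used here. The deposited Oct4 lists give, per library, a fold enrichment ratio over input, a score and −log10 p and q-values (smallest −log10 q 2.00). Tools with a cutoff turn small differences in depth into presence or absence of a peak.

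Peaks were joined to GENCODE vM1 genes by an overlap of at least 1 bp with a promoter (1000 bp around any TSS) or window (gene body plus 50 kb). A difference was called at 1.5-fold or by presence in 1 list, and set beside the same share over all protein-coding genes. Percentiles rank a peak's score within its list, for H3K4me3 and H3K27Ac the mean of both library scores. Single-gene Oct4 counts had exact two-sided permutation tests over libraries (scipy 1.17.1). The code that calls widths was run on simulated single peaks with planted folds, which checks the code and is no test of the histone values. The members and lists were chosen with earlier results of these data known. All members are named; of each comparison list at most 5 genes with the largest width ratio and those with promoter H3K27Ac in 1 list only. The motifs were searched on both strands of NCBIM37, which is mm9. Alternatives covered promoter size, flank, joined peaks, equal list lengths, stronger peaks and left-out libraries. Sox1 was not analysed here.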

Additional observations from a re-analysis of the deposited data

How the results depend on the processing

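Of 107 values recomputed under the alternatives, 6 changed sign, 25 others moved beyond the limits set and 76 did not. The limits were 1.5-fold for counts, 0.1 for log2 ratios, 50% for the H3K9me3 difference and 1 SD between libraries for Oct4. Some of the 76 could not move: the median and log2 ratios do not use the fold, and the replicate block leaves the Oct4 difference unchanged. The Oct4 limit of 5.85 peaks exceeded the difference itself, 4.5, so values from 1 to 10 peaks counted as unmoved. The count of the 8 genes narrower by 1.5-fold, 1 at the main setting, was 0 with a promoter of 2500 bp, with joined peaks and at a fold of 2, 2 with the stronger 50% of peaks and 3 with the 5′ end alone, where the median log2 ratio was -0.39. The log2 ratio changed sign for Otx2 with a promoter of 2500 bp (0.0564), for Zic2 with the 5′ end alone (0.24) and for Sall2 with the stronger 50% (0.0925). Further medians were taken with alternatives chosen after seeing the data, at equal list lengths, with joined peaks and with the 5′ end alone. In that order they were -0.30, -0.31 and -0.30 for all genes and -0.46, -0.30 and -0.31 for the other primed genes. For the naive genes with both values they were -0.000898, -0.0970 and 0.0144.

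With the stronger 50% of peaks, promoter H3K27Ac was at 1 gene in WT, and distal peaks numbered 6 in WT and 6 in Spen KO. Joining peaks left 8 distal peaks in Spen KO. A flank of 20 kb gave 4 distal peaks in WT and 8 in Spen KO. H3K9me3 covered 12.0 kb in WT and 13.2 kb in Spen KO with a flank of 20 kb (Spen KO minus WT 1.2 kb), 145.8 and 141.2 kb with 100 kb (-4.6 kb), and 51.6 kb in WT with the stronger 50% (difference 3.47 kb). At equal covered length the difference was -0.126 kb. The cause of these shifts was not tested.

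The Oct4 difference, 4.5 peaks, was 1 with a flank of 20 kb, 4 with 100 kb, 2 with the stronger 50% and 3 with libraries cut to the shortest, all within the SD of 5.85 peaks. Leaving out 1 Oct4 library at a time gave differences from -1 peak, without WT replicate 1, to 10 peaks, without WT replicate 2. With the replicate block the paired difference was 4.5 peaks, which by arithmetic must equal the unpaired one with 2 libraries against 2, so it is no check. Deviations of same-numbered libraries correlated at 0.03 over 9478 genes, and the labels do not say that a number marks a shared batch. The libraries were therefore not paired in the main comparison, and whether same-numbered libraries share a batch is not known. The absence of replicate values for the histone marks limits every width and count.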
